A study of Mus musculus with 32 samples.

Results

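The genes described here encode the Fos and Jun proteins that form the transcription factor AP-1: Fos, Fosb, Fosl1, Fosl2, Jun, Junb and Jund. Probes were taken by the gene symbol in the array platform's annotation, which gave 1 probe for each of 6 of the 7 genes, out of 16593 named genes on the array. Fosl2 was not analysed here, because no probe carried its symbol. All 6 probes were detected above background on enough arrays to be tested. They are ILMN_2750515 for Fos, ILMN_2778279 for Fosb, ILMN_2649550 for Fosl1, ILMN_2646625 for Jun, ILMN_1220034 for Junb and ILMN_2682788 for Jund.

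The study measured total RNA of embryonic fibroblasts of the mouse (MEFs), the collagen-making cells cultured from embryos and here immortalized, on 32 Illumina bead arrays. WT cells were Spry124fl/fl, so that Spry1, Spry2 and Spry4 were floxed but intact, and KO cells were Spry124-/-, with these 3 genes deleted. Both genotypes were immortalized, and both were starved of serum in DMEM with 0.2% BSA, penicillin and streptomycin before FGF. RNA was taken at 0, 15, 60, 120 and 240 min of FGF, with 4 arrays for each genotype at 0 min and 3 at each later time, which the submitters call biological replicates. Which FGF was used, its dose, how the genes were deleted, and whether each genotype is 1 line or several are not given in the sources used here. With 1 WT and 1 KO background described, the genotype and any other difference between the lines cannot be told apart.

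AP-1 is a pair of basic leucine zipper proteins, either 2 Jun proteins or 1 Jun and 1 Fos protein, that binds short DNA sites in enhancers and promoters. Jun proteins can pair with each other, whereas Fos proteins need a Jun partner. Growth factors acting through receptor tyrosine kinases and ERK switch on Fos, Fosb, Jun and Junb within minutes as immediate early genes, while Fosl1 (Fra-1) is a delayed member that AP-1 and ERK signalling themselves sustain, and Jund is broadly expressed in resting cells. Sprouty proteins, the products of the Spry genes, are inhibitors of receptor tyrosine kinase signalling to ERK that the pathway itself induces, and the series was designed to assess loss of this feedback.

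The promoters of the early genes are shown because 4 of these genes rose together at 60 min. Each window runs from 250 bases before to 50 bases after the gene's start in RefSeq (assembly GRCm38.p6), 5′ to 3′ on the gene's own strand. Fos lies at chr12:85473640-85473939 on the plus strand, Fosb at chr7:19309996-19310295 on the minus strand, Jun at chr4:95052173-95052472 on the minus strand and Junb at chr8:84978699-84978998 on the minus strand. Capitals mark every match to the motifs searched.
Fos: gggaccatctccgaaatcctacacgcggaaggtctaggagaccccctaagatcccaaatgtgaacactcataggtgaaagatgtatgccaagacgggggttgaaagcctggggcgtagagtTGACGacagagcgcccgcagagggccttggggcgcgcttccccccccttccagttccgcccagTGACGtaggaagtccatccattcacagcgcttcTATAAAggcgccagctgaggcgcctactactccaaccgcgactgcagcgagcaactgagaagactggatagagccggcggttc
Fosb: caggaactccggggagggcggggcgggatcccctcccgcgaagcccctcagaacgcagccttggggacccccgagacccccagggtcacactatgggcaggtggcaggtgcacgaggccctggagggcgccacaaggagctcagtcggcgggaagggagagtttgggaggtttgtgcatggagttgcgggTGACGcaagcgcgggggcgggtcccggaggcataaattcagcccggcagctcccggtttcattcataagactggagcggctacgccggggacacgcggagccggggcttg
Jun: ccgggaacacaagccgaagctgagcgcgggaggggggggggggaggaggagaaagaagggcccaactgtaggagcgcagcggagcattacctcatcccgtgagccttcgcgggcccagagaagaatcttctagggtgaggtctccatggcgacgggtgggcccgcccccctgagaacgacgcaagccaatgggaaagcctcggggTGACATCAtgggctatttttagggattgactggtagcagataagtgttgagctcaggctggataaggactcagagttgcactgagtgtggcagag
Junb: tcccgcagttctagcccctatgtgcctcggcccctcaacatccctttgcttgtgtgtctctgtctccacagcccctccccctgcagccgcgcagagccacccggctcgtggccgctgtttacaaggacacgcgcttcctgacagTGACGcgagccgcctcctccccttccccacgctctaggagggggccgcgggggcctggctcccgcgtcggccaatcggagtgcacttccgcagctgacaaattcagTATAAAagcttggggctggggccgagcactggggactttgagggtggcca
Both strands were searched for the AP-1 site TGACTCA, for the CRE TGACGTCA, for the Jun site TGACATCA, for the CArG box bound by serum response factor, and for the TATA box TATAAA. The shorter motif TGACG, which also lies inside the CRE, was added after the sequences had been seen. Fos held TGACG from position -129 to -125 and from -66 to -62, and TATAAA from -33 to -28, counted from the start site. Fosb held TGACG from -60 to -56. Jun held TGACATCA from -45 to -38, and Junb held TGACG from -106 to -102 and TATAAA from 1 to 6. Of all 32851 windows in the RefSeq table, 20.8% held TGACG, 13.6% TATAAA, 5.2% TGACTCA, 3.62% TGACATCA, 1.79% TGACGTCA and 1.63% a CArG box. The windows of Jund and Fosl2 held none of these letters, and Fosl1 was not in the table. A match describes letters only, and no match says nothing about a factor.

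Between 11319 and 12470 probes per array were detected, from medians of 35 to 41 beads per probe. Of 13 fibroblast markers on the array, 11 were detected on every array of each genotype, Fap was detected on none and Lum on none of the KO arrays. The summed level of the 12 tested, on the linear normalized scale, was 25279 to 29919 on WT and 16399 to 21616 on KO arrays. The 4 tested epithelial markers summed to 180 to 290 on WT and 106 to 160.3 on KO arrays. The 2 tested leukocyte markers gave 117 to 200 and 178 to 328, and the 2 tested endothelial markers 42.03 to 56.9 and 44.98 to 72.9. Background correction added an offset of 16 to each probe, so sums of dim probes are in part this offset. The leukocyte marker Ptprc and the endothelial marker Cdh5 were detected on no array, and Krt18 and Krt5 on none either. Spry4 was detected on 13 of 16 WT and on 4 of 16 KO arrays, Spry1 and Spry2 on at most 2 arrays of either genotype, and Spry3, which was not deleted, on 16 WT and 0 KO arrays. Whether these probes lie in the deleted sequence was not tested. In such bulk RNA, fewer cells of a type and less RNA per cell cannot be told apart.

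In WT cells, FGF raised Fosb, Junb, Fos, Jun and Fosl1 at 60 min, and Jund showed no call. The fitted WT change at 60 min ranked Fosb 4, Junb 12, Fos 14, Jun 23 and Fosl1 37 among the 10903 genes tested. At 0 min Fosb was above background on 0 of 4 WT arrays and Fos on 1 of 4. The size of their changes, and so their ranks and the median given below, are uncertain. These 5 members rose where 5.25% of all tested genes were called in either direction by limma's moderated test at a Benjamini-Hochberg adjusted p under 0.05. The median change of the 6 members at 60 min was 1.85 on the log2 scale, against -0.01 over all genes. At 15 min 1 member rose in WT cells, against 2.29% of genes called, at 120 min 4 rose, against 4.02%, and at 240 min 3 rose and 1 fell, against 16%. In KO cells 3 members rose at 15 min, against 0.816% of genes called, 5 at 60 min, against 5.66%, 4 at 120 min, against 15.2%, and 4 at 240 min, against 21.3%.

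**Figure D1:**
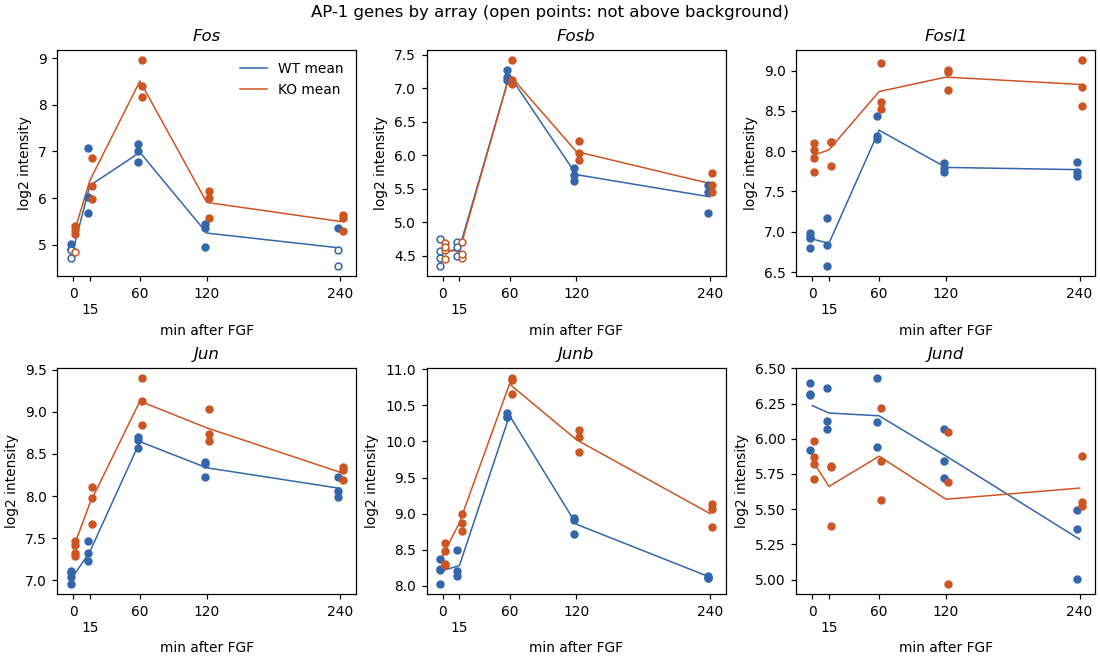
Normalized log2 intensity of the 6 AP-1 genes on each array (points) with group means (lines), against minutes of FGF, WT in blue and KO in orange; open points are arrays on which the probe was not detected. Fos, Fosb, Jun and Junb are highest at 60 min in both genotypes, Fosl1 is higher on every KO array than on every WT array of the same time, and the scales of the panels differ.

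Fos, the founding partner of Jun and a textbook immediate early gene, was near background before FGF. Its log2 level at 0 min was 4.91, 5.02, 4.71 and 4.88 on the WT arrays and 5.39, 5.32, 5.22 and 4.84 on the KO arrays, with 1 WT and 3 KO arrays above background. At 15 min it was 6.03, 7.08 and 5.69 in WT and 6.87, 5.99 and 6.26 in KO cells. All 6 arrays at 15 min lay above all 8 at 0 min, while the genotypes overlapped at 15 min. Every change of Fos from 0 min in WT cells is set against a level that 1 of 4 arrays measured above background, so its size is uncertain. Fos was the only member called at 15 min in WT cells, with a measured change of 1.39 ± 0.25 (SE, adjusted p = 0.00164), which was not called with only the 2 groups of the comparison in the fit (0.102). It rose by 1.18 in KO cells (adjusted p = 0.0186), a call lost without replicate A of the KO arrays at 15 min (adjusted p = 0.197) or without replicate D at 0 min (0.076).

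At 60 min Fos reached 7.16, 7.0 and 6.78 in WT cells and 8.96, 8.16 and 8.40 in KO cells. Every KO array lay above every WT array. The measured ratio to 0 min was 4.29-fold in WT (adjusted p = 8.11e-07), where 1 of 4 arrays at 0 min was above background. It was 9.95-fold in KO cells (adjusted p = 1.13e-10), where 3 of 4 were. KO exceeded WT 2.88-fold at 60 min (log2 difference 1.53 ± 0.267, adjusted p = 3.23e-05). The difference between the 2 responses was 1.21 ± 0.354, with a 95% interval of 0.49 to 1.94, and did not pass the adjusted threshold (adjusted p = 0.123). Like the WT change, it rests on the WT level at 0 min, near background. It passed with an offset of 50 (adjusted p = 0.00481), with only the 4 groups of the comparison in the fit (0.047), and without replicate B of the WT arrays at 15 min (0.0449), an array outside the comparison that enters the shared variance. Fos then fell by 1.73 from 60 to 120 min in WT (adjusted p = 5.09e-05) and by 2.60 in KO cells (adjusted p = 6.42e-08). At 240 min it stood at 5.36, 4.89 and 4.54 in WT and 5.63, 5.58 and 5.29 in KO cells, with neither genotype called against its own 0 min (adjusted p = 0.933 and 0.441).

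Fosb, a Fos protein with a transactivation domain like that of Fos, was not detected on any array at 0 or 15 min in either genotype. At 60 min its log2 level was 7.27, 7.13 and 7.16 in WT and 7.11, 7.06 and 7.42 in KO cells, with all arrays detected and the genotypes overlapping. Because its level at 0 min is only a bound, the rise is given as at least 4.67-fold in WT and at least 5.05-fold in KO cells. The adjusted p values of 1.67e-16 in WT and 3.27e-16 in KO cells belong to the fitted changes, and the bounds were not tested. Such a bound sets the mean of the brighter group against a floor for the dimmer one, taken per array as the lowest level of any detected probe or the level measured, whichever was larger. KO and WT differed by 0.01 at 60 min, with a 95% interval of -0.23 to 0.25. The fitted difference of the 2 responses at 60 min was -0.05 (95% interval -0.37 to 0.28), and it rests on the groups below background at 0 min. Fosb fell by 1.48 from 60 to 120 min in WT (adjusted p = 3.69e-10) and by 1.14 in KO cells (adjusted p = 7.29e-08). It was still at least 1.33-fold above 0 min at 240 min in WT and at least 1.64-fold in KO cells (adjusted p of the fitted changes = 1.96e-06 and 1.07e-07).

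Fosl1 encodes Fra-1, a Fos protein without the C-terminal transactivation domain of Fos. It rose at 60 min and was still above its 0 min level at 240 min in both genotypes. Its log2 level in WT cells was 6.99, 6.94, 6.79 and 6.92 at 0 min, 8.19, 8.44 and 8.15 at 60 min, and 7.87, 7.74 and 7.70 at 240 min. The WT rise was 2.55-fold at 60 min (log2 1.35 ± 0.138, adjusted p = 4.53e-08). It was 0.89 on the log2 scale after 120 min and 0.86 after 240 min (adjusted p = 8.55e-05 and 4.12e-05). No step after 60 min passed the threshold, in WT (adjusted p = 0.0534 for the change of -0.46 to 120 min, with no overlap between the arrays of these times) or in KO cells (change of 0.18). The step in WT cells was called under 7 of 12 alternatives.

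KO cells held more Fosl1 before any FGF. The arrays at 0 min read 8.02, 7.74, 8.11 and 7.91, all above the 4 WT arrays, a 2.05-fold difference (log2 1.04 ± 0.128, adjusted p = 1.31e-07). In the normalized values the genotypes did not overlap at any of the 5 times. In the deposited intensities, not normalized between arrays, they overlapped at 60 min (WT up to 355.7, KO from 329.6). The difference was 1.16 ± 0.148 at 15 min, 0.48 after 60 min (adjusted p = 0.00993), 1.12 after 120 min and 1.06 after 240 min. Averaged over the 5 times it was 0.97 ± 0.0645 (1.96-fold, adjusted p = 1.07e-13). The value at 60 min was 0.30 (adjusted p = 0.117) without replicate B of the KO arrays, and 0.35 (0.0506) with scaling by the median of the kept probes. The response at 60 min was smaller in KO cells by 0.56 (SE 0.196, 95% interval of the difference -0.96 to -0.15), which did not pass (adjusted p = 0.219). At 120 and 240 min the KO rises of 0.97 and 0.88 differed from the WT rises by 0.09 and 0.02, also without a call.

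Jun encodes the partner that all Fos proteins can use, and is itself an AP-1 target. Its log2 level in WT cells was 7.08, 7.11, 6.95 and 7.04 at 0 min, 8.57, 8.67 and 8.70 at 60 min, and 7.99, 8.06 and 8.22 at 240 min. In KO cells it was 7.46, 7.29, 7.41 and 7.33 at 0 min, 8.85, 9.14 and 9.40 at 60 min, and 8.19, 8.31 and 8.34 at 240 min. In these normalized values KO arrays lay above WT arrays without overlap at 0 and 60 min and overlapped at 240 min. The deposited intensities, not normalized between arrays, overlapped at 0 min (WT up to 141.5, KO from 140.2) and 60 min (WT up to 461.8, KO from 421.3). Jun rose 3.04-fold at 60 min in WT (adjusted p = 1.04e-11) and 3.37-fold in KO cells (adjusted p = 1.76e-12). It stayed 1.05 above 0 min at 240 min in WT (adjusted p = 4.31e-08) and 0.91 in KO cells (adjusted p = 4.35e-07), when Fos was not called in either. At 15 min the KO rise of 0.54 passed (adjusted p = 0.0138) but not without replicate A or B of that group (0.169 and 0.103), and the WT value of 0.29 ± 0.11 did not pass (adjusted p = 0.192). The difference of the responses was not called at any time and was 0.15 at 60 min (SE 0.156, 95% interval -0.17 to 0.47). From 120 to 240 min Jun fell by 0.53 in KO cells (adjusted p = 0.00234).

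Junb encodes a Jun protein that activates less than Jun at single AP-1 sites and can oppose it. It was the member whose FGF responses were called different between the genotypes. At 60 min both genotypes were high, at 10.34, 10.40 and 10.34 in WT and 10.65, 10.88 and 10.85 in KO cells, from 8.02, 8.37, 8.23 and 8.23 and from 8.30, 8.48, 8.59 and 8.30 at 0 min. The rise was 4.43-fold in WT (log2 2.15, adjusted p = 3.69e-15) and 5.19-fold in KO cells (2.38, adjusted p = 3.68e-16), and the 2 rises were not called different (0.23, adjusted p = 0.564). At 120 min Junb read 8.91, 8.94 and 8.71 in WT and 10.07, 9.86 and 10.15 in KO cells. At 240 min it read 8.11, 8.14 and 8.11 in WT and 9.13, 8.82 and 9.06 in KO cells. The KO rise of 0.45 at 15 min (adjusted p = 0.0291) was lost without replicate A or B of the KO arrays at that time or replicate A or D at 0 min (0.197, 0.12, 0.102 and 0.102). At 240 min WT cells were back among their values at 0 min, while all 3 KO arrays lay above every KO array at 0 min.

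The KO response of Junb exceeded the WT response by 0.97 at 120 min (95% interval 0.67 to 1.26, 1.95-fold, adjusted p = 0.000184) and by 0.67 at 240 min (0.38 to 0.97, 1.6-fold, adjusted p = 0.00332). Among the 6 members Junb was the only one called in either test, where 1.86% and 7.86% of all genes were called in the difference of responses at 120 and 240 min. No member was called at 15 min (0.055% of genes) or 60 min (0.706% of genes), and at an unadjusted p under 0.05 the counts were 1 (Junb) and 2 (Fos and Fosl1) of 6, against 6.95% and 12.1% of all genes at that threshold. A test over the 4 responses together called Junb (adjusted p = 0.000303) and no other member, against 9.22% of genes, with Fos at an adjusted p of 0.0714. Between 60 and 120 min Junb fell 2.84-fold in WT (log2 change -1.51, adjusted p = 5.94e-11) and 1.71-fold in KO cells (-0.77, adjusted p = 1.25e-05). A test of the difference of these 2 steps, added after the data had been seen, gave 0.73 (95% interval 0.42 to 1.05, adjusted p = 0.00794), with 1.54% of genes called and Junb the 1 member among them. The differences at 120 and 240 min and of the steps were called in every alternative run and with any 1 array left out. Scaling by the median of all probes, however, lowered the value at 120 min to 0.58 (adjusted p = 0.0117). It lowered that at 240 min to 0.53, close to the threshold (adjusted p = 0.0461).

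In the deposited intensities, which are not normalized between arrays, Junb at 60 min was 1504, 1429.5 and 1488.6 in WT and 1465.3, 1587.5 and 1508.1 in KO cells. These overlap, whereas the normalized values did not. At 120 min the deposited intensities were 476.7, 518.3 and 426.3 in WT and 863.6, 703.2 and 907.4 in KO cells, without overlap. The genotype difference of Junb at 60 min (0.44, adjusted p = 0.00185) was not called when the intensities were scaled by the median of the kept probes (0.22, adjusted p = 0.102) or of all probes (0.24, 0.122). It was not called either with kept-probe scaling and no background correction (0.26, 0.0597). With the authors' processed values it was called (0.44, 0.00215). The genotype difference of Junb at 120 min was 2.25-fold (log2 1.17, adjusted p = 8.08e-10) and 0.93 (adjusted p = 1.64e-07) with scaling by all probes.

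**Figure D2:**
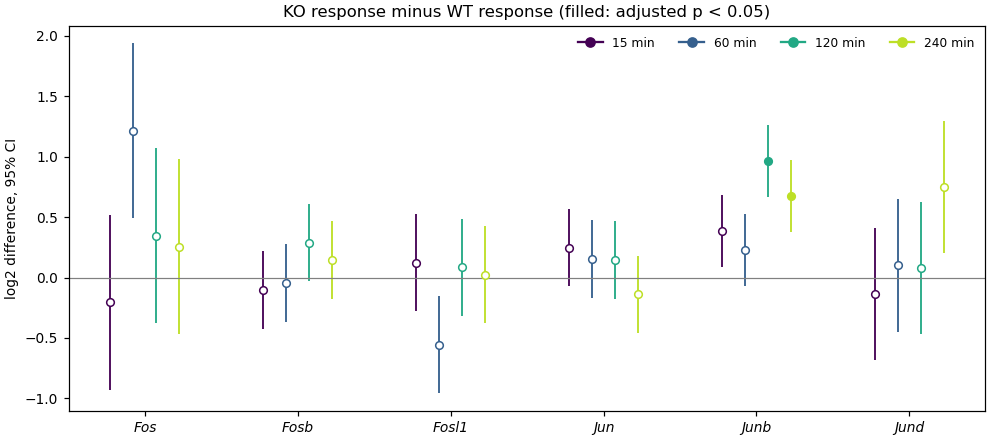
Difference of the FGF responses (KO minus WT, log2) for each gene at 15, 60, 120 and 240 min, with 95% intervals; filled points have an adjusted p under 0.05. Junb at 120 and 240 min is filled, and the interval of Fos at 60 min, 0.49 to 1.94, lies above 0 without passing the adjusted threshold.

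Jund, a Jun protein found in resting cells, did not rise with FGF. Its log2 level in WT cells was 6.32, 6.31, 5.92 and 6.40 at 0 min, 6.43, 6.12 and 5.94 at 60 min, and 5.50, 5.36 and 5.0 at 240 min. All WT arrays at 240 min lay below all those at 0 min, a 1.93-fold fall (log2 change -0.95 ± 0.189, adjusted p = 0.000578). These arrays were above background at 240 min, but replicate C lay near its lowest detected level of 4.97. The size of the fall is therefore uncertain. In KO cells Jund was 5.72, 5.87, 5.82 and 5.98 at 0 min and 5.88, 5.52 and 5.55 at 240 min, which overlap (change -0.20, adjusted p = 0.522). The difference of these responses was 0.75 (95% interval 0.20 to 1.30) and missed the threshold (adjusted p = 0.0836). Like the WT fall, it rests on the WT level at 240 min, near background. It passed with only the 4 groups of the comparison in the fit (0.0367) without replicate C of the WT arrays at 0 min (0.0421), and without replicate B of the KO arrays at 120 min (0.0365).

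From 60 to 120 min, 3 members fell in WT, against 7.85% of genes called, and 3 in KO cells, against 17.3%. These were Fos, Fosb and Junb in each genotype. From 120 to 240 min, 1 member fell in WT (Junb, by 0.73, adjusted p = 3.52e-05), against 9.56% of genes called, and 3 in KO cells (Junb by 1.02, Jun by 0.53 and Fosb by 0.48), against 19%. No member rose in any of these steps.

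The genotypes were also compared at each time. At 0 min 2 members were higher in KO cells, Fosl1 and Jun (0.33 ± 0.102, adjusted p = 0.00939), against 45.8% of all genes called. At 15 min 3 were higher and 1 lower, against 39.9%, and at 60 min 4 were higher, against 42%. At 120 min 5 were higher, against 43.8%, and at 240 min 2 were higher, against 43.9%. For the mean of the 5 times 4 were higher and 1 lower, against 67.4%. With 6 genes, 2 called at 0 or 240 min is no larger a share than that of all genes. The summed fibroblast markers given above were lower on every KO array, but of 12 tested 4 were higher and 6 lower in KO cells at 0 min, 5 and 6 at 60 min, 3 and 6 at 120 min, and 4 and 5 at 240 min. Both tested leukocyte markers were higher at 0, 120 and 240 min. The part of these in the genotype differences was not tested.

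Among single values, Junb was 0.59 ± 0.109 higher in KO cells at 15 min (adjusted p = 7.04e-05) and 0.88 at 240 min (1.84-fold, adjusted p = 1.7e-07). Jun was 0.58 higher at 15 min (adjusted p = 0.00024), 0.48 after 60 min and 0.47 after 120 min (adjusted p = 0.00149 and 0.00157). Deposited intensities, not normalized between arrays, overlapped for Jun at 15 min (WT up to 194, KO from 166.7) and 120 min (353.2 and 291.5). They also overlapped for Junb at 15 min (421.3 and 373.5), and at 120 min for Fos (29.1 and 26.4) and Fosb (43.6 and 34.4). For Junb at 240 min and Jund at 15 min they did not overlap. Jund was 0.52 lower at 15 min (log2 difference -0.52, adjusted p = 0.04), a call lost without replicate A or B of the WT arrays or replicate B of the KO arrays at that time (adjusted p = 0.143, 0.0628 and 0.193). Its mean over the 5 times was -0.23 (adjusted p = 0.0239), and -0.17 (0.0519) without replicate B of the KO arrays at 120 min. Neither value of Jund passed without background correction (0.0842 and 0.0738) or with the authors' processed values (0.075 and 0.0599). Fos at 120 min was 0.66 higher (adjusted p = 0.0473), and 19 of the 32 fits that left out 1 array lost this call, with the highest adjusted p of 0.184. Fosb at 120 min was 0.34 higher (adjusted p = 0.0193), and 0.27 (0.111) without replicate A of the KO arrays or 0.30 (0.0798) without replicate A of the WT arrays. Scaling by the median of all probes ended the calls of Jun at 60 and 120 min (adjusted p = 0.0679 and 0.236) and of Fosb and Fos at 120 min (0.164 and 0.0926). Averaged over the 5 times, Fos was 0.63 higher (adjusted p = 2.31e-05), Jun 0.41 (4.95e-08) and Junb 0.66 (7.61e-13), and Fosb at 0.11 did not pass (0.0562). The mean of Fos includes WT cells at 0 and 240 min, when 1 of 4 and 1 of 3 arrays were above background. That of Fosb includes 0 and 15 min, when no array was, so the size of both means is uncertain.

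**Figure D3:**
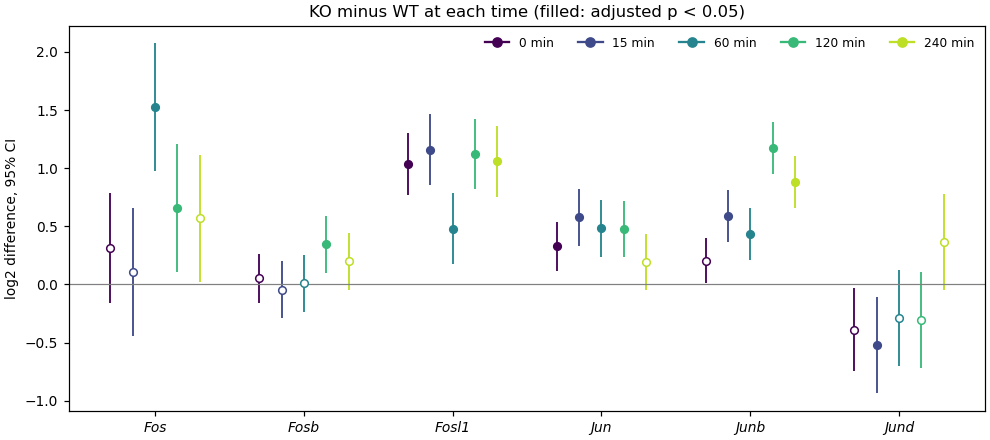
Log2 difference KO minus WT for each gene at 0, 15, 60, 120 and 240 min of FGF, with 95% intervals; filled points have an adjusted p under 0.05. Fosl1 is filled at all 5 times, Fos is highest at 60 min with 1.53, Junb at 120 min with 1.17, and Fosb at 60 min lies at 0.01.

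**Figure D4:**
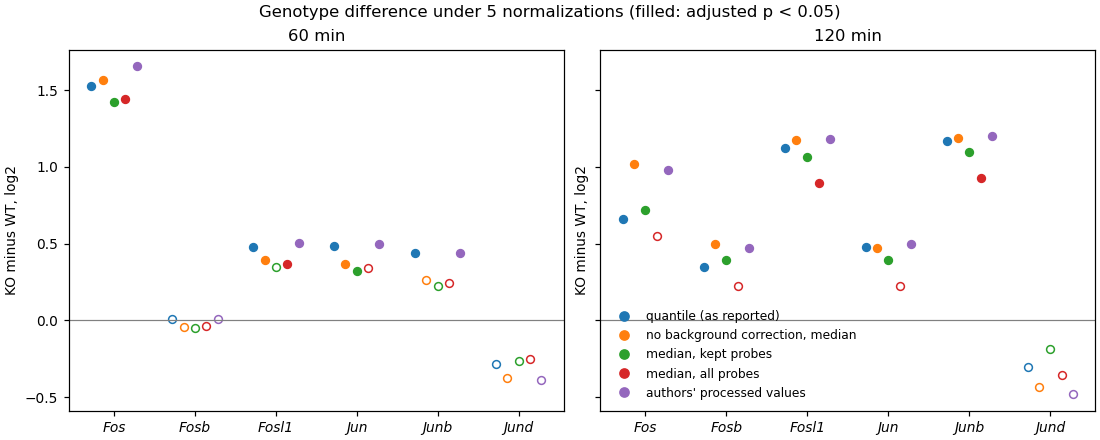
Log2 difference KO minus WT at 60 min (left) and 120 min (right) for each gene under 5 normalizations, filled where the adjusted p is under 0.05. Fos at 60 min and Junb and Fosl1 at 120 min are filled throughout. Under scaling by the median of all probes, Jun and Junb at 60 min and Fos, Fosb and Jun at 120 min lose the call. Fosl1 and Junb at 60 min lose it under scaling by the median of the kept probes, and Junb at 60 min also without background correction.

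The order of group means, on the normalized log2 scale, differed between members. For Fos the highest group was KO at 60 min (8.51 ± 0.406, SD, n = 3), apart from WT at 60 min (6.98 ± 0.193), and every later neighbour in the order overlapped the next. For Junb the first 3 groups, KO at 60 min (10.8 ± 0.122), WT at 60 min (10.4 ± 0.0342) and KO at 120 min (10.02 ± 0.152), stood apart from each other, and WT at 240 min (8.12 ± 0.012) came last. For Fosb the 2 groups at 60 min overlapped and stood above all others. For Fosl1 the first 3 places were KO at 120, 240 and 60 min, which overlapped each other and stood above WT at 60 min. For Jun, WT at 0 min (7.04 ± 0.0673) came last and apart, and for Jund every neighbour overlapped the next.

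Correlations over the 10 group means only describe genes measured on the same arrays and times. Junb followed Fosb (r = 0.90), Jun (0.87) and Fos (0.82), and Fosl1 followed Jun (0.83) more than Fos (0.41). Jund lay between -0.51 with Fosl1 and 0.22 with Fos. The named genes outside the family whose 10 means followed Fos most closely were Zfp36 (r = 0.97), which encodes tristetraprolin, a protein that speeds decay of AU-rich mRNAs, Atg2a (0.95) and the zinc finger factor Egr1 (0.89). For Fosb they were Cited2 (0.96), Sgk1 (0.93) and Egr2 (0.93), and for Jun they were Ier3 (0.93), Rgs16 (0.92) and Cttnbp2nl (0.91). For Junb they were Arc (0.96), Csrnp1 (0.95) and the Hippo pathway kinase Lats2 (0.95). For Fosl1 they were Ptprn (0.97), Bcl10 (0.97) and Twist1 (0.96), and for Jund Hmg20b (0.96), Klhdc10 (0.93) and Ebf3 (0.92).

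Other proteins of the basic leucine zipper class can pair with Fos or Jun, and 14 of 20 listed were tested. At 60 min 5 rose and 0 fell in each genotype, against 5.25% of all genes called in WT and 5.66% in KO cells, with a median of 0.32 in WT and 0.14 in KO cells, against -0.01 in each over all genes. Atf3, a stress-induced partner of Jun, rose by 2.15 ± 0.129 in WT and 2.22 in KO cells. Its KO response exceeded the WT response by 1.11 at 120 min (adjusted p = 0.000683), the 1 call of the list there, against 1.86% of all genes called. Nfil3, a repressor, rose by 1.38 in WT and 0.71 in KO cells at 60 min, a difference of -0.67 (adjusted p = 0.00695). Maff and Cebpb rose at 60 min by 0.54 and 0.60 in WT and by 0.56 and 0.56 in KO cells. At 240 min 2 rose and 1 fell in WT, among them Batf3 (0.77) and Atf5 (change -0.40), and 5 rose and 2 fell in KO cells, among them Crem (0.98). Of all genes, 16% in WT and 21.3% in KO cells were called at that time. Before FGF 3 were higher and 4 lower in KO cells, a share near the 45.8% of all genes called, including Cebpb (0.82) and the Jun partner Jdp2 (0.70) above, and Atf5 (-0.87) and Crem (-0.84) below.

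Of 31 listed regulators of AP-1 genes or proteins, 21 were tested. At 60 min 5 rose in WT and 6 in KO cells with none falling, against 5.25% and 5.66% of all genes called, and the medians were 0.08 and 0.14. The largest of these rises was that of Zfp36, by 1.48 ± 0.144 in WT and 2.95 ± 0.144 in KO cells, and the difference of 1.46 was called (adjusted p = 0.000176). Dusp6 and Dusp1, phosphatases of MAP kinases, rose by 1.03 and 0.90 in WT and by 0.99 and 0.98 in KO cells. Dusp6 stayed up at 240 min by 1.11 and 0.91 and was lower in KO cells before FGF (difference -0.60, adjusted p = 3.81e-07). Dusp1 was below its 0 min level at 240 min in both (-0.35 and -0.57). At 240 min 3 rose and 4 fell in WT and 5 rose and 3 fell in KO cells, against 16% and 21.3% of all genes called. At 0 min 5 were higher and 3 lower in KO cells, against 45.8% of all genes called. The difference of responses called 1 at 60 min, 2 at 120 min (Dusp10 by 0.96, and Dusp4 by a fitted 0.81 that is no bound, since no WT array at 0 min detected it) and 0 at 240 min. Of all genes, 0.706%, 1.86% and 7.86% were called in that difference at 60, 120 and 240 min.

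Of 30 genes described as AP-1 targets in other work, 26 were tested, and counts called rose from 60 to 240 min in both genotypes, as did those over all genes, from 5.25% to 16% in WT and from 5.66% to 21.3% in KO cells. In WT cells 7 rose at 60 min, 11 at 120 min and 14 at 240 min, when 2 fell. In KO cells 9 rose at 60 min, 18 at 120 min, when 1 fell, and 18 at 240 min. Of all genes, 4.02% in WT and 15.2% in KO cells were called at 120 min. The median at 240 min was 0.48 in WT and 1.12 in KO cells, against -0.01 in each over all genes. Proteases of the extracellular matrix were among the largest rises. The stromelysins Mmp3 and Mmp10 rose by 4.27 ± 0.149 and 3.24 ± 0.159 at 240 min in WT and by 2.77 and 3.60 in KO cells, and the collagenase Mmp13 by 0.71 and 2.58. The urokinase gene Plau rose by 2.54 in WT and 1.22 in KO cells.

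The difference of responses at 240 min called 11 targets up and 4 down, against 7.86% of all genes called. Mmp13 (1.87), the EGF receptor ligand Hbegf (1.57) and the cytokine Lif (1.39) had the larger rise in KO cells, and Mmp3 (-1.50) and Plau (-1.32) the smaller. At 120 min, with 1.86% of all genes called, 6 targets were called up and 0 down, among them Lif (2.14 ± 0.221), Mmp10 (1.32) and Hbegf (1.31). Mmp13 was among them with a fitted 1.66, which is no bound because no WT array at 120 min detected it. The cytokine gene Csf2 was not detected on any KO array at 0 min and was at least 1.89-fold higher at 60 min and at least 5.78-fold higher at 120 min. Before FGF 14 of 26 targets were higher and 3 lower in KO cells, against 45.8% of all genes called. Mmp3 was 17.1-fold higher (4.09 ± 0.138, adjusted p = 8.2e-20) and the chemokine gene Ccl2 3.02-fold, while Hbegf was 2.94-fold lower and Ezr, which links actin to the membrane, 2.92-fold lower.

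Of 22 other immediate early genes, 18 were tested. At 15 min 1 rose and 1 fell in WT and 5 rose in KO cells, against 2.29% and 0.816% of all genes called. At 60 min 12 rose in WT and 15 in KO cells, with medians of 1.61 and 1.35, against 5.25% and 5.66% of all genes called. At 120 min 6 rose in WT and 14 in KO cells, with medians of 0.21 and 0.81, against 4.02% and 15.2% of all genes called. At 60 min Egr2 rose by 2.99 in WT and 3.91 in KO cells, Csrnp1 by 2.80 and 2.55, Ier3 by 2.49 and 1.92 and Egr1 by 2.46 and 3.42. The difference of responses called 8 up and 0 down at 120 min, against 1.86% of all genes called. Csrnp1 was among them by 1.40 ± 0.151 (adjusted p = 7.95e-07), with a WT change of -0.10 and a KO rise of 1.31 at that time, next to the 0.97 of Junb. At 60 min, with 0.706% of all genes called, it called 4 up, among them Klf2 (1.0), Egr1 (0.96) and Egr2 (0.91), and 3 down, among them Ier3 (-0.57) and Sgk1 (-0.45). At 240 min 5 rose and 3 fell in WT, and 5 rose and 1 fell in KO cells, against 16% and 21.3% of all genes called. At 0 min 7 were higher and 5 lower in KO cells, against 45.8% of all genes called, with Ccn1 at 1.33 and Egr2 at -1.07.

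**Figure D5:**
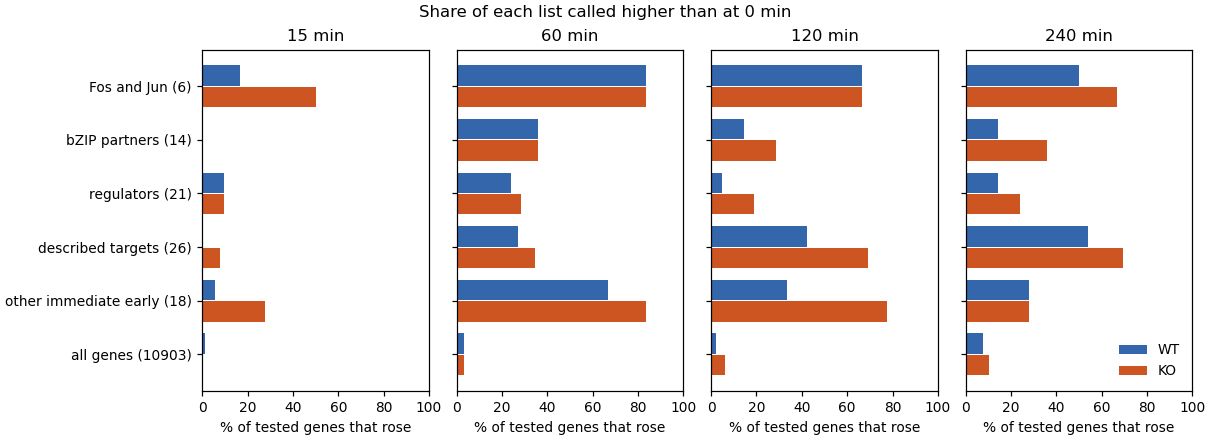
Percent of the tested genes of each list that rose (adjusted p under 0.05) over 0 min, at 15, 60, 120 and 240 min of FGF, in WT (blue) and KO cells (orange), with the number tested in brackets. The Fos and Jun genes and the other immediate early genes have the longest bars at 60 min, the described targets have their longest bars at 120 and 240 min, and the bars for all genes stay short.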

How the data were processed

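RNA was hybridised to 32 Illumina bead arrays. The authors deposited linear intensity values without normalization between arrays, some of them negative; GenomeStudio 1.9.0 is named in the submitters' processing notes. The deposited detection fraction was read as 1 minus a detection p-value. A second deposited intensity, the authors' processed value table, served as an alternative, and no source used here states how it was made. Per the file headers, bead standard deviations (intensity) and bead numbers were deposited too and served only to compare replicates. A further 128 columns were not used.

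Probes were named from the platform annotation (23978 of 25697 have 1 symbol), of which 23962 were matched to RefSeq GRCm38.p6. In R 4.3.3 with limma 3.58.1, intensities had normexp background correction with negative controls inferred from detection p, an offset of 16, quantile normalization and log2. A probe was kept with detection p under 0.05 on at least 3 arrays (14716 probes), and the highest-mean kept probe stood for a gene (10903 tested, 862 unnamed). 1 model of the 10 group means was fitted by lmFit over the 32 arrays, and eBayes added 5.27 prior to 22 residual degrees of freedom. Every adjusted p is limma's, by Benjamini-Hochberg over all tested genes. The fit was tested on simulated data.

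The members, the 4 gene lists and the marker lists were chosen with earlier results of these data known. Named genes were all members and, from each list, up to 4 called genes with the largest change in a response at 60 or 240 min or between genotypes at 0 min. The 3 named genes with the highest Pearson correlation to a member were added. Alternatives covered the offset, background correction, scaling, filter, probe choice, variance prior, replicate block, groups in the fit and each array left out. The alternative without background correction set a floor of 16 and used scaling by the median of the kept probes in place of quantile normalization.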

Additional observations from a re-analysis of the deposited data

Results flagged for a closer look

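Of the members' FGF responses, those of Junb differed between genotypes by a test of the difference itself. The KO response exceeded the WT response by 0.97 on the log2 scale at 120 min (adjusted p = 0.000184) and by 0.67 at 240 min (adjusted p = 0.00332). The change from 60 to 120 min differed by 0.73 (adjusted p = 0.00794), a test added after the data had been seen. All 3 KO arrays lay above all 3 WT arrays at 120 min and at 240 min. Scaling by the median of all probes gave 0.58 at 120 min (adjusted p = 0.0117) and 0.53 at 240 min (0.0461). Between genotypes, 3 of 12 tested fibroblast markers were higher and 6 lower in KO cells at 120 min, and 4 and 5 at 240 min, with medians of -0.50 and -0.01. Both tested leukocyte markers were higher, with medians of 0.66 and 0.84. The part of these in the result was not tested.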

How the results depend on the processing

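No call of a member changed direction under any alternative. Fits with 1 array left out kept the side of the threshold of 4340 of 4416 member changes, with 34 calls lost and 42 gained. The direction of changes without a call was not counted. Of 138 member changes, scaling by the median of all probes lost 10 calls and gained 7, and testing every kept probe on its own changed 0. The causes of the changes below were not tested.

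Scaling by the median of all probes gave 1 called member in place of 3 in the KO response at 15 min, 2 in place of 4 and 2 in place of 5 between genotypes at 60 and 120 min, 1 in place of 3 in the KO step from 120 to 240 min, 2 in the WT step and 1 (Fosl1) in the difference of responses at 60 min. It moved the median of all genes from -0.02 to -0.21 in the KO response at 120 min and from -0.01 to -0.27 in the difference of responses there, and the share of calls that were higher from 40.4% to 5.61% and from 53.7% to 3.34%. Under it Junb still exceeded WT by 0.58 in that difference. Scaling by kept probes gave 2 members between genotypes at 60 min. The test over 4 times called 2 in place of 1 under either scaling, an offset of 50 or no background correction. An offset of 50 gave 1 in the difference at 60 min and 2 in that of the steps. The WT step from 120 to 240 min had 2 in place of 1 without background correction, with the authors' processed values and with a trended prior. Fosl1 in the WT step from 60 to 120 min was called with an offset of 50, no background correction, either scaling, a detection p under 0.01, a trended prior or only its own groups.

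With only the groups of a comparison in the fit, 0 members were called at 15 min in WT or KO cells, 1 in the difference at 60 min and 2 at 240 min. This fit gives no value for the mean of 5 times or the test over 4 times. Averaging replicates A and D at 0 min, added after the data had been seen, left 1 in the KO response at 15 min. No pairing of arrays by replicate letter was seen in these values. Deviations from group means of arrays with the same letter had a median correlation of -0.0077, against 0.0045 for other pairs. In 0 of 45 pairs of groups was every same-letter correlation over 0.1. Such correlations cannot show whether arrays with the same letter shared a culture. The replicate block gave 2 members in the WT step from 120 to 240 min (Jund added, adjusted p = 0.0492), cost the call of Junb in KO cells at 15 min (0.078) and changed no other call.

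With 1 array left out, counts ran from 0 to 3 in the KO response at 15 min, 0 to 1 and 1 to 2 in the difference at 60 and 240 min, 3 to 5 between genotypes at 120 min, and 1 to 2 in the WT step from 120 to 240 min, the difference of the steps and the test over 4 times. They ran from 4 to 5 in the KO response at 120 min, from 2 to 3, 3 to 4, 3 to 4 and 2 to 3 between genotypes at 0, 15, 60 and 240 min, from 5 to 6 for the mean, and from 3 to 4 in both steps from 60 to 120 min. The number of arrays limits the precision. Fos and Fosb were near background before FGF, and Fos and Jund were near it in WT cells at 240 min.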

Other observations

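Replicates A and D were the closest pair of arrays at 0 min in both genotypes. Their mean squared difference was 1.70 times the variance expected from bead noise in WT and 1.79 times in KO cells, against up to 4.89 times for another WT pair. Bead noise leaves out labelling and hybridisation. Each array was counted as 1 sample, and the effect of averaging A and D is given with the processing.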
